A study of Mus musculus with 4 samples.

Results

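The genes examined were 9 of the 25814 genes listed in the deposited tables, chosen by name as genes of osmolyte transport and osmotic stress: Slc5a3, Slc6a6, Slc6a12, Slc38a2, Akr1b3, Hspa4l, Hspa1a, Hspa1b and Sgk1. They were read in primary keratinocytes (KCs), which build the epidermis, grown from the tails of adult 129/sv mice. Poly(A) RNA was sequenced from 2 libraries of wild-type (WT) mice and 2 libraries of Nfat5-/- siblings, whose Nfat5 gene is disrupted throughout the body. All cultures were untreated and were kept in serum-free medium with little calcium, so no osmotic stimulus was applied and the comparison asked how these genes stood at rest. Per the study's methods the colony has shrunken kidneys and persistently high blood sodium, and the tails travelled overnight on ice before the KCs were prepared.

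Cells that meet a salty environment first take up ions and then exchange them for organic osmolytes, small neutral molecules such as myo-inositol, taurine, betaine and sorbitol that do not disturb proteins. NFAT5, also called TonEBP, is the transcription factor that binds the tonicity enhancer and raises the genes for the uptake or synthesis of these molecules, as is best known from the medulla of the kidney. It also raises chaperones of the HSP70 family. In skin, NFAT5 is known from macrophages that sense stored sodium and from KCs, which face a steep gradient of water and salt at the surface.

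All 4 libraries carried the RNA of basal KCs. The 7 KC markers (Krt5, Krt14, Krt15, Trp63, Itga6, Itgb4, Col17a1) summed to between 11064 and 12871 RPKM (exon reads corrected for exon length and for library depth), although Krt15 lay between 0.0797 and 0.440. Krt5 (4990 to 5775 RPKM) and Krt14 (5148 to 6985) led the list, followed by Itgb4 (323 to 452) and Col17a1 (182 to 266). Total exon reads ranged from 15899630 to 23059639 per library. Nfat5 itself was read at 1.67 and 3.0 RPKM in WT, beside 2.02 and 2.78 under the Nfat5-/- label, so the groups overlapped. Counts per gene do not show which exons were read, and every direction below therefore rests on the labels. Genes listed as markers of 2 other cell types moved with the label. The 5 smooth muscle markers summed to 184 and 151 RPKM in WT and to 518 and 819 in the libraries labelled Nfat5-/-. Acta2 and Tagln made up most of the sum, and Acta2, Tagln and Cnn1 were past the test. Myh11 was barely read, at 0.00913 and 0 RPKM in WT and 0.120 and 0.294 in the others. Des was read in 1 library only. The 5 melanocyte markers summed to 7.29 and 6.99 RPKM in WT and to 2.04 and 2.89 in the others, with Tyrp1 past the test. Fibroblast markers, led by Col1a1 and Pdgfra, summed to 0.409 to 1.13 RPKM, endothelial markers, mostly Kdr, to 0.537 to 0.770, and immune markers, mostly Cd68, to 14.8 to 21.5. Whether cells of these types were present was not tested, nor was their part in the differences below. In bulk RNA fewer cells of a type and less RNA per cell cannot be told apart.

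Several of the genes share sequence with others, which limits how their reads can be assigned. Slc5a3 (chr16:92058322-92087473, + strand, GRCm38) has 2 exons. Its first exon, of 159 bases, is also part of the first exon of Mrps6, a gene for a mitochondrial ribosomal protein, and the transcripts part after it. The lines show 30 bases of each transcript across that splice junction, with the shared end of exon 1 in capitals.
Slc5a3: AAAGCCATGCGGCGGggttggtacagtagg
Mrps6: AAAGCCATGCGGCGGccagagaccgctgct

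Hspa1a (chr17:34969190-34972156, - strand) and Hspa1b (chr17:34956436-34959238, - strand) are single-exon neighbours that encode the inducible HSP70. Their coding sequences, 1923 and 1926 bases without the stop codon, aligned with 8 substitutions and 3 gap columns, an identity of 99.4%, and held a run of 638 identical bases. Of the 59-base windows in Hspa1a, which is the read length, 56.5% were also in Hspa1b. A read can tell the genes apart only where it crosses a difference, as in this stretch of the coding sequence (positions 1358 to 1416 from the start codon), with the 2 differing bases in capitals.
Hspa1a: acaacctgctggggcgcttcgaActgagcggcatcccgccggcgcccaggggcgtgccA
Hspa1b: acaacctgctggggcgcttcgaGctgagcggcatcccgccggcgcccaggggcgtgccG

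The DNA before the transcription start was searched in windows of 300 bases (250 before and 50 after each RefSeq start, GRCm38.p6), on both strands, and 7 of the 9 genes had a window. Slc6a6 and Akr1b3 had none and were not searched. TGGAAA, the core of the tonicity enhancer, occurred in 1 of 5 windows of Slc6a12 and in 2 of 6 windows of Sgk1, against 21.4% of all 32851 windows. The longer tonicity enhancer consensus, which contains that core, occurred in the same Slc6a12 window and in no other window of these genes, against 4.96% of all windows. GAANNTTC, a minimal heat shock element, occurred in Hspa1a, Hspa1b and 2 windows of Sgk1, against 7.86% of all windows. The 250 bases before the start are shown for Slc6a12 (chr6:121342324-121342573, + strand), with the consensus match in capitals, and for the HSP70 pair (chr17:34972157-34972406 and chr17:34959239-34959488, - strand), with GAANNTTC in capitals. The pair differed at 3 of these 250 positions.
Slc6a12: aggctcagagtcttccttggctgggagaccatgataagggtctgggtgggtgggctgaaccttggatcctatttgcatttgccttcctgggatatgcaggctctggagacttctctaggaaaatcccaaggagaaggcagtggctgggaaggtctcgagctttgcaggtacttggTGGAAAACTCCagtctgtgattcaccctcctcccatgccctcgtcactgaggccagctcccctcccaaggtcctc
Hspa1a: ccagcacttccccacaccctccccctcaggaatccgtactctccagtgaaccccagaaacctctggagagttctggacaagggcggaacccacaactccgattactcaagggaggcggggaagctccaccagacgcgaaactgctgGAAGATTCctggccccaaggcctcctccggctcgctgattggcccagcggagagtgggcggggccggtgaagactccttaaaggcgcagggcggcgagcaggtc
Hspa1b: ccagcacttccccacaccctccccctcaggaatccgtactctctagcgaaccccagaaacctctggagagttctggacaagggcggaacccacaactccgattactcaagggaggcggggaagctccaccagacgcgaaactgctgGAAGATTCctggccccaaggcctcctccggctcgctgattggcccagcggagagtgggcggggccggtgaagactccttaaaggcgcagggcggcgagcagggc

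Reads were listed for 8 of the 9 genes, for Slc5a3 almost none of them unique. On the RPKM scale the order of the means over the 4 libraries was Slc38a2 (103), Sgk1 (74.9), Akr1b3 (66.9), Hspa1b (22.6), Slc6a6 (7.77), Hspa1a (4.69), Hspa4l (3.59) and Slc5a3 (0.698), and Slc6a12 had no read. The values of Sgk1 and Akr1b3 overlapped, as did those of Hspa1a and Hspa4l, and Slc38a2 was above Sgk1 in each library. In the libraries labelled Nfat5-/-, 6 of the 8 tested genes were lower and 2 higher, with a median log2 fold change of -0.26, beside 52% of genes lower and a median of -0.01 over all 12111 tested genes. None of the 8 passed the edgeR test at an adjusted p of 0.05 (0 of 8, where 1.44% of all tested genes passed in either direction and 0.372% passed as lower). At an unadjusted p under 0.05 there were 3, Slc38a2, Slc6a6 and Hspa4l, against 14.7% of all genes, and DESeq2 called 1, Slc38a2, where it called 3.47% of all genes. The RPKM values of the groups did not overlap for 5 lower genes, where 25.6% of all tested genes were lower without overlap, and for 1 higher gene, Hspa1b, where the share was 21.8%. The study describes the animals as siblings, but the labels do not tie each library to an animal or culture of its own, so p-values measure the spread between these libraries only.

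**Figure D1:**
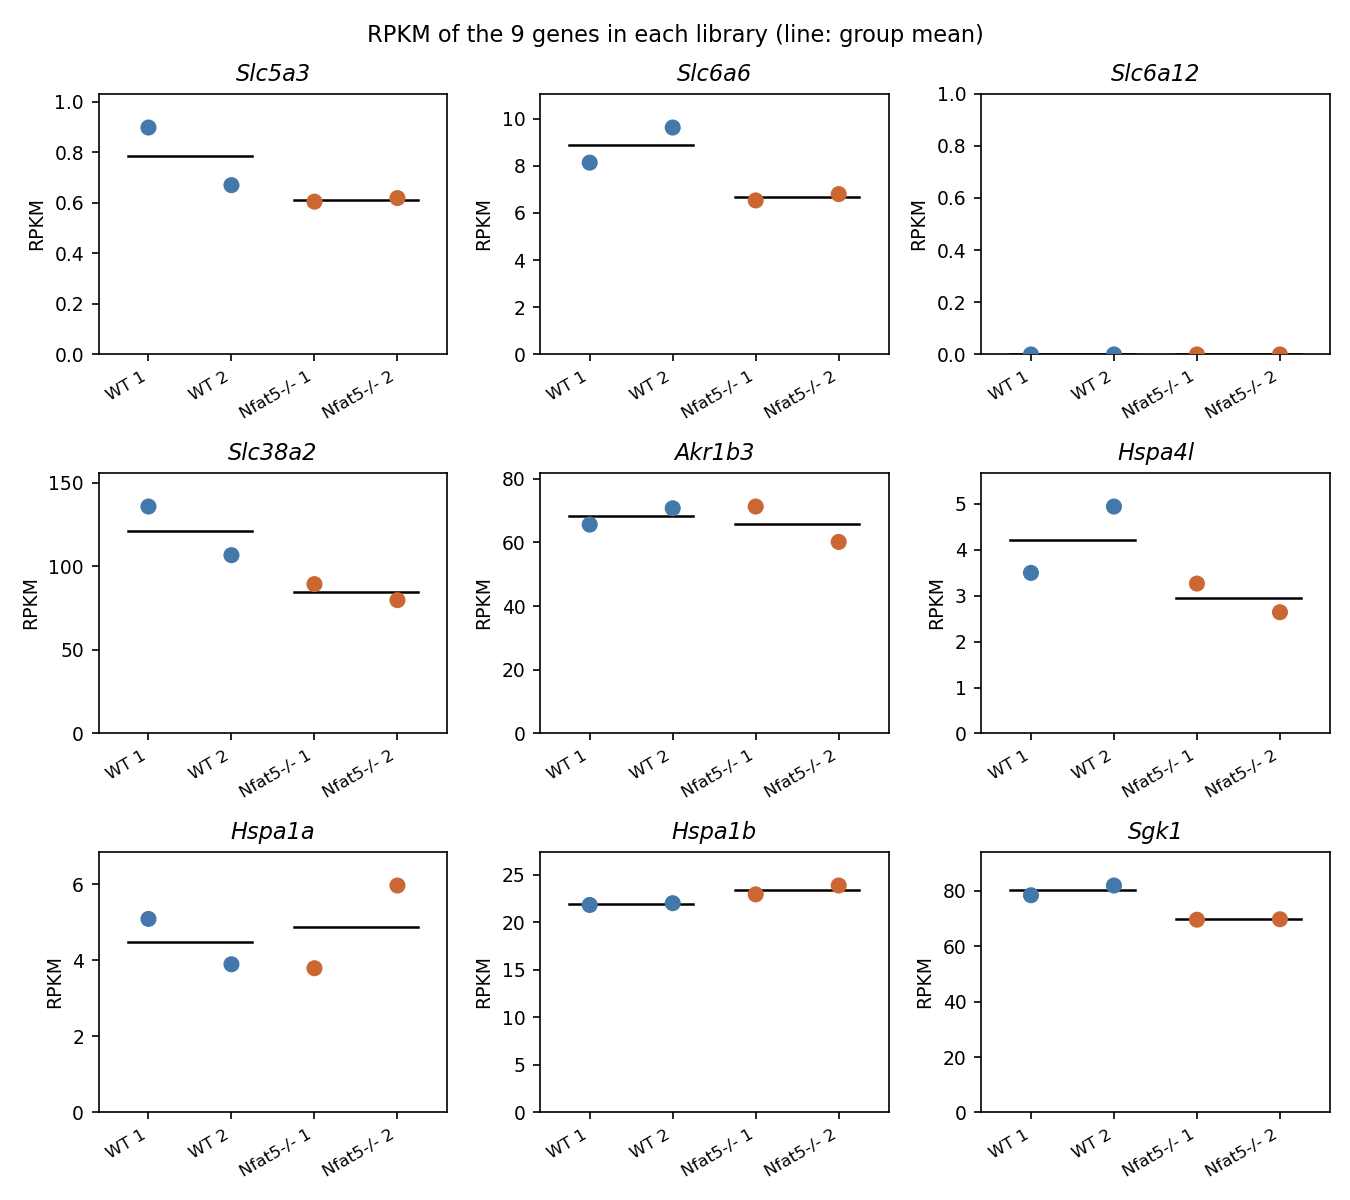
RPKM (y axis, linear from 0, scaled per gene) of each of the 9 genes in the 4 libraries (x axis; blue WT, orange labelled Nfat5-/-), with a line at each group's mean. Both orange points lie below both blue points for Slc5a3, Slc6a6, Slc38a2, Hspa4l and Sgk1, and above them for Hspa1b alone, while Slc6a12 is at 0 throughout.

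The taurine carrier was lower in both libraries labelled Nfat5-/-, short of the threshold. Slc6a6 (chr6:91684053-91759066, + strand) encodes TauT, which takes up taurine with sodium and chloride. Its level was 8.13 and 9.62 RPKM in the WT libraries, and 6.53 and 6.80 in those labelled Nfat5-/-. Both labelled libraries were below both WT libraries. Its reads, 875 and 1379 in WT and 1018 and 840 in the others, were all placed at a single site save 2 in WT replicate 1. The log2 fold change was -0.40 (SE 0.12, 95% interval -0.68 to -0.12), or 0.757 times the WT level, with an unadjusted p of 0.0114 (edgeR quasi-likelihood test, 0.182 after Benjamini-Hochberg adjustment). The difference thus did not pass the threshold over all genes.

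Slc5a3, which encodes the sodium/myo-inositol carrier SMIT1, was low and rested almost wholly on reads that were not placed at a single site. WT libraries were listed at 0.898 and 0.670 RPKM and those labelled Nfat5-/- at 0.605 and 0.619, without overlap. The first WT library alone stood well above the other 3. These values came from 163, 162, 159 and 129 exon reads, of which 0, 1, 1 and 0 were placed uniquely, 2 of 613 in all or 0.326%. Both unique reads crossed the splice junction. The second exon (chr16:92076720-92087473) makes up 10754 of its 10913 exon bases, holds the whole coding region and overlaps no exon of another gene, and only 0.930% of the 59-base windows of Slc5a3 were found in other transcripts. It lies, however, within the span of Mrps6 (chr16:92058270-92112227), between the exons of that gene. Whether the counting of reads in this nested position gave the low unique share was not tested. Its fitted log2 fold change was -0.34 (SE 0.21, interval -0.82 to 0.14, adjusted p 0.505, edgeR), and -0.11 without WT replicate 1.

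Mrps6 had 26.7 and 27.3 RPKM in WT and 25.1 and 24.1 in the others, an adjusted p of 0.710 in edgeR. When the reads of Slc5a3 and Mrps6 were summed before the fit (538 and 674 in WT, 671 and 519 in the others), the fit gave a log2 fold change of -0.18 (SE 0.11, adjusted p 0.522, edgeR). Slc5a3 gave 23.7% to 30.3% of that sum. Uniquely placed reads of Slc5a3 were under the floor of 3 reads, 0.0114 to 0.0165 RPKM, in every library, so no difference was detectable from them.

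Slc6a12, which encodes the betaine carrier BGT1 and is a classic NFAT5 target of the kidney medulla, had 0 exon and 0 intron reads in all 4 libraries (chr6:121343076-121365775, + strand). A count of 0 allows up to 3 reads, or 0.0430 to 0.0623 RPKM at these depths. The floor covers counting error only. No difference could be measured for it, and it was the one gene of the 9 left out of the test.

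Of the 9 genes, the amino acid carrier had the most reads. Slc38a2 (chr15:96687392-96699730, - strand) encodes SNAT2, a sodium-coupled carrier of small neutral amino acids, which cells use both as nutrients and as early osmolytes. The WT libraries held 136 and 107 RPKM of it, and the libraries labelled Nfat5-/- 89.3 and 79.7. The groups did not overlap, and the spread between the WT libraries was of the same order as the gap to the others. All of its 10515, 11004, 10024 and 7093 exon reads were placed uniquely. Its log2 fold change was -0.51 (SE 0.14, interval -0.82 to -0.19), or 0.703 times the WT level, with an unadjusted p of 0.00632 and an adjusted p of 0.136 in edgeR, and it was -0.31 without WT replicate 1. The adjusted p was 0.0294 in DESeq2, which passed.

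**Figure D2:**
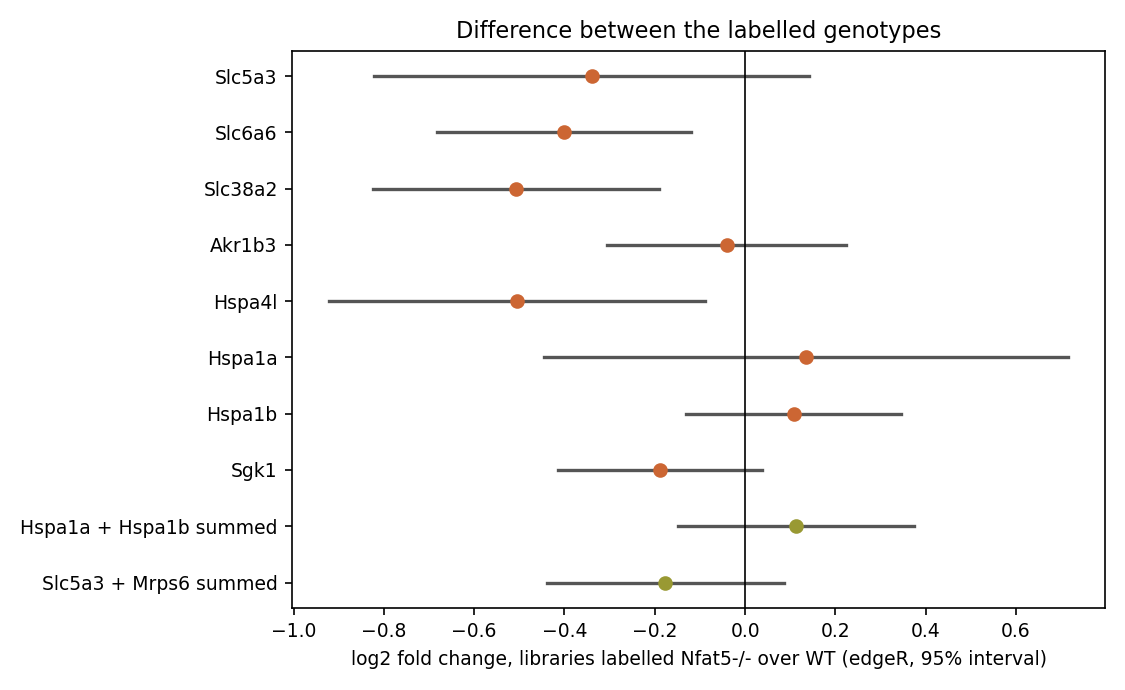
Log2 fold change of the libraries labelled Nfat5-/- over WT (x axis) for the 8 tested genes and for the 2 summed pairs, as points with 95% intervals from edgeR, before any adjustment over genes. The intervals of Slc6a6, Slc38a2 and Hspa4l lie below 0, and all others cross it.

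SNAT2 is also known as a target of the amino acid response, in which the factor ATF4 raises genes of amino acid uptake and synthesis. Of 13 genes of that response other than Slc38a2, 12 were lower in the libraries labelled Nfat5-/-, 11 of them without overlap in RPKM (25.6% of all tested genes), and 9 had an unadjusted p under 0.05 (14.7% of all). Their median log2 fold change was -0.55, beside -0.01 for all tested genes, but only Atf5 was past the threshold. Atf5, a factor of the same family as ATF4, fell from 164 and 153 RPKM to 92.4 and 101 (log2 fold change -0.70, adjusted p 0.0273, edgeR). Atf4 was at 250 and 180 RPKM in WT, against 163 and 127 in the others (adjusted p 0.208, edgeR). Asns, asparagine synthetase, was at 220 and 163 against 134 and 109, and Phgdh, which opens serine synthesis, at 197 and 155 against 135 and 109. In Atf4, Asns and Phgdh, as in Slc38a2, WT replicate 1 was the highest library and Nfat5-/- replicate 2 the lowest. The list was drawn up with earlier results of these libraries known and is no independent evidence of its direction.

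The other osmolyte transporters gave a mixed picture. Of 13 listed, 9 were tested, 6 of them lower, with a median log2 fold change of -0.16, and 1 passed (1.44% of all tested genes). Of the 9, 3 had an unadjusted edgeR p under 0.05 (14.7% of all). In RPKM, 3 were lower without overlap (25.6% of all) and 1 was higher without overlap (21.8% of all). Slc38a4, a relative of Slc38a2, fell from 2.94 and 3.18 RPKM to 1.35 and 1.63 (log2 fold change -1.02, SE 0.18, adjusted p 0.0451, edgeR). Slc6a9, which encodes the glycine carrier GLYT1 and had the lowest log2 fold change of the list, was at 20.0 and 11.6 RPKM in WT, against 7.42 and 5.87 in the others (log2 fold change -1.23, adjusted p 0.0603, edgeR). The choline carriers Slc44a2 (29.9 to 37.5 RPKM) and Slc44a1 (13.8 to 17.5) and the proton-coupled carrier Slc36a1 (3.50 to 4.50) had adjusted p values of 0.603, 0.937 and 0.644 in edgeR. Slc2a13, a proton-coupled carrier of myo-inositol chosen after its value was seen, was barely read but had the list's largest log2 fold change by size, in the other direction, at 0.0460 and 0.0622 RPKM in WT against 0.146 and 0.136 (1.36, SE 0.47, adjusted p 0.235, edgeR). Slc5a11, which also carries myo-inositol, and Slc6a13 had no read.

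Aldose reductase, which makes sorbitol from glucose, overlapped between the labels. Akr1b3 (chr6:34302434-34317478, - strand) had 65.6 and 70.7 RPKM in WT, and 71.2 and 60.1 under the Nfat5-/- label. Each group held a higher and a lower library. This gave a log2 fold change of -0.04 (SE 0.11, interval -0.30 to 0.22, adjusted p 0.904, edgeR), an interval of 0.810 to 1.17 times the WT level. Of its 1587, 2279, 2498 and 1671 reads only 207, 279, 337 and 236 were placed uniquely, 13.2% in all. Of its 59-base windows, 76.9% recurred in transcripts of other loci, among them Gm38056 (72.9%) and the processed pseudogenes Gm6644 (49.3%), Gm6736 (41.9%) and Gm12138 (34.1%). With unique reads alone the log2 fold change was 0.08 (SE 0.15), so its sign was not fixed.

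Of 4 relatives of aldose reductase, 3 were tested and none passed. Akr1a1, aldehyde reductase, was high and even, at 447 to 454 RPKM, Akr1b8 lay at 47.4 to 58.0 and Akr1b10 at 7.94 to 11.0, with a smallest adjusted p of 0.553 in edgeR, and Akr1b7 had no read. Of 14 genes for synthesis or breakdown of osmolytes, 11 were tested. At an unadjusted edgeR p under 0.05 there were 2, against 14.7% of all tested genes. Of the 11, 5 were lower and 0 passed (median log2 fold change 0.04). Among them Isyna1, which makes myo-inositol phosphate, was at 43.6 and 40.5 RPKM against 38.1 and 34.2 (adjusted p 0.425, edgeR), and Pnpla6, which breaks down phosphatidylcholine, at 15.8 and 12.5 against 10.2 and 10.9 (adjusted p 0.230, edgeR). Aldh7a1, which makes betaine, was at 23.0 and 22.1 RPKM in WT against 23.5 and 25.6 in the others, slightly higher without overlap (adjusted p 0.609, edgeR). The inositol phosphatase Impa1 (10.6 to 11.7) stayed within a narrow range, and Miox, which breaks inositol down, had no read.

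**Figure D3:**
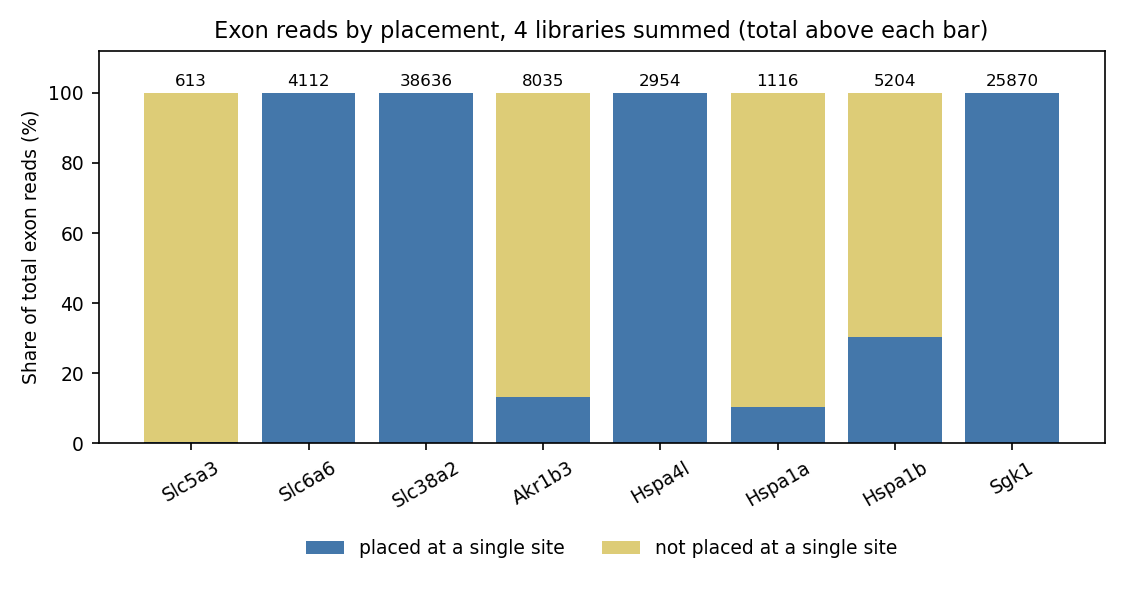
Share of exon reads (y axis, percent) that were placed at a single site (blue) or not (yellow), for the 8 genes with reads, summed over the 4 libraries, with the total number of reads above each bar. Slc6a6, Slc38a2, Hspa4l and Sgk1 were read almost wholly from unique reads, whereas Hspa1b (30.5%), Akr1b3 (13.2%), Hspa1a (10.5%) and Slc5a3 (0.326%) were not.

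Of the 3 chaperones, Hspa4l was lower in value and Hspa1b higher, while the sign of Hspa1a turned with the libraries used. Hspa4l (chr3:40744495-40796103, + strand) encodes APG-1, a large HSP70 relative that acts as a nucleotide exchange factor and was found as a chaperone induced by osmotic stress. Its level was 3.50 and 4.94 RPKM in WT against 3.26 and 2.64 under the Nfat5-/- label, from 579, 1090, 783 and 502 reads. The groups did not overlap, but the lower WT value and the higher labelled one were close. The log2 fold change was -0.50 (SE 0.18, interval -0.92 to -0.09), with an unadjusted p of 0.0236 and an adjusted p of 0.251 in edgeR, and it was -0.24 without WT replicate 2.

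Hspa1b was at 21.8 and 22.0 RPKM in WT, against 22.9 and 23.8 in the others, and Hspa1a at 5.09 and 3.90 against 3.79 and 5.97. Hspa1b was slightly higher without overlap, and Hspa1a overlapped. The log2 fold changes were 0.11 (SE 0.10, adjusted p 0.685) and 0.13 (SE 0.25, adjusted p 0.850) in edgeR. That of Hspa1a was -0.24 without Nfat5-/- replicate 2 and -0.06 without WT replicate 2. Most of their reads were not placed at a single site, and the split between the copies is uncertain: 320, 402, 440 and 423 reads of Hspa1b and 30, 20, 27 and 40 of Hspa1a were unique. In addition, 564 of the 2967 exon bases of Hspa1a overlap Gm20481 on the other strand, and no source says that strand was used in counting. Summed, the pair had 1267 and 1621 reads in WT and 1818 and 1614 in the others. For the sum, the log2 fold change was 0.11 (SE 0.11, interval -0.15 to 0.37, adjusted p 0.703, edgeR).

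Of 11 further HSP70 genes, 9 were tested, 5 of them lower, with a median log2 fold change of 0.00, and 0 passed. An unadjusted edgeR p under 0.05 was reached by 3, against 14.7% of all tested genes. Hspa8, the constitutive cytosolic form, was at 790 and 865 RPKM in WT, against 918 and 883 in the others (adjusted p 0.587, edgeR). Hspa5, the chaperone of the endoplasmic reticulum, was at 408 and 307 against 245 and 223, with the smallest adjusted p of the list (0.105, edgeR). The mitochondrial Hspa9 was at 204 and 193 against 171 and 143, and Hspa4, a close relative of Hspa4l, stayed between 72.1 and 74.9. Hspa2, chosen after its value was seen, was higher without overlap, at 15.7 and 15.0 RPKM against 18.1 and 23.4 (log2 fold change 0.45, adjusted p 0.220, edgeR). Of 11 targets of heat shock factor outside the HSP70 family, 2 were lower and 9 higher in value, with a median of 0.09. None passed, and 1 had an unadjusted edgeR p under 0.05, against 14.7% of all tested genes. Hspb1 (2411 to 3779 RPKM), Hsp90ab1 (620 to 708), Hsp90aa1 (233 to 256) and Hspd1 (135 to 153) were the most abundant.

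Sgk1 (chr10:21882184-21999903, + strand) encodes a kinase that is raised by hypertonicity and glucocorticoids and that promotes sodium transport. Its level was 78.4 and 81.9 RPKM in WT, against 69.6 and 69.8 under the Nfat5-/- label. The replicates lay close together and the groups did not overlap. Its log2 fold change was -0.19 (SE 0.10, interval -0.42 to 0.04, adjusted p 0.418, edgeR), so the interval reached no change. Its reads, 5506 and 7662 in WT and 7078 and 5624 in the others, were unique save for 0 to 2 per library. Its relative Sgk3 was at 4.22 to 4.98 RPKM (adjusted p 0.848, edgeR), and Sgk2 had reads in 1 library only, at 0.0126 RPKM.

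Genes that answer the same upstream signals as Sgk1 did not share 1 direction. Of 7 glucocorticoid response genes, 4 were lower and 0 passed (median log2 fold change -0.09). An unadjusted edgeR p under 0.05 was found for 1, against 14.7% of all tested genes. Fkbp5 was at 9.53 to 15.0 RPKM, Per1 at 11.8 to 16.3, and both overlapped between groups, while Dusp1 (18.4 and 13.4 against 21.2 and 18.6) and Zfp36 (14.6 and 13.9 against 17.6 and 19.1) were higher without overlap. Of 8 immediate early genes, 5 were higher and 3 lower in value, and 2 passed, where 1.44% of all tested genes passed. Fos rose from 10.7 and 10.2 RPKM to 17.1 and 17.8 (log2 fold change 0.76, adjusted p 0.0265, edgeR), and Egr1 from 12.4 and 18.4 to 29.4 and 35.4 (log2 fold change 1.09, adjusted p 0.0444, edgeR). Junb (125 to 163 RPKM), Ier2 (49.6 to 56.7) and Jun (27.4 to 32.4) had adjusted p values of 0.811, 0.695 and 0.513 in edgeR.

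The list of osmotic signalling genes held Nfat5 itself, given above, and 15 genes of signalling around it. All 16 were tested, 6 of them lower, with a median log2 fold change of 0.03, and 0 passed. At an unadjusted edgeR p under 0.05 there were 3, against 14.7% of all tested genes. Rac1 (104 to 106 RPKM), Map2k3 (67.8 to 77.2), Ddx5 (54.1 to 63.6) and the p38 kinase Mapk13 (57.5 and 53.5 in WT, 64.9 and 68.6 in the others, adjusted p 0.279, edgeR) were the most abundant. Of 16 other genes reported as targets of NFAT5 or of hypertonicity in other cells, 9 were tested, 2 lower and 7 higher in value. Their median was 0.20, and 0 passed (smallest adjusted p 0.0527, edgeR). The number with an unadjusted edgeR p under 0.05 was 3, against 14.7% of all tested genes. Ptgs2 (150 to 198 RPKM) and the small chaperone Cryab (63.8 to 120) were high in KCs and overlapped between groups. Tnf (15.7 to 43.3) and Ccl2 (2.74 to 14.2) varied more between the WT libraries than between the groups. The smallest adjusted p of the list belonged to Ereg, an EGF receptor ligand chosen after its value was seen, at 4.43 and 2.91 RPKM in WT, against 8.64 and 6.90 in the others. No tested gene of the list was lower without overlap (25.6% of all tested genes), and 3 of the 9 were higher without overlap (21.8% of all).

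**Figure D4:**
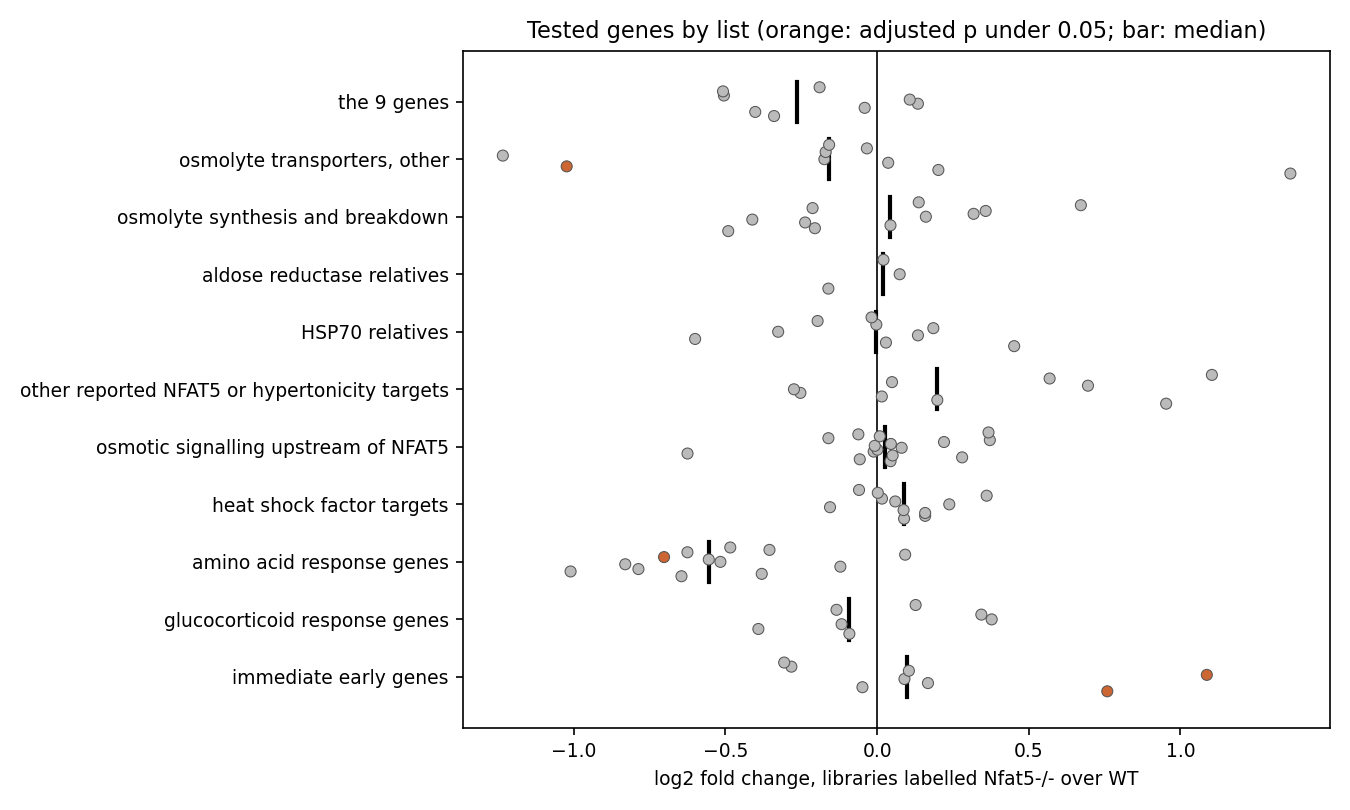
Log2 fold change of the libraries labelled Nfat5-/- over WT (x axis) for each tested gene of the 9 and of 10 related lists (rows), with a bar at each list's median and genes past an adjusted p of 0.05 in orange. The amino acid response genes lie lowest, with a median of -0.55, and the 4 genes past the threshold are Slc38a4, Atf5, Fos and Egr1.

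The genes whose profiles over the 4 libraries lay closest to those of the inositol and taurine carriers were found by the distance between centred log2 CPM values (counts scaled to library size). For Slc5a3 they were Arhgap29 (0.0178), AU040320 (0.0193) and Nol3 (0.0202). For Slc6a6 they were Enox1 (0.0205), Asb13 (0.0357) and Sphk1 (0.0359). With 4 libraries such closeness is a description only.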

How the data were processed

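The authors trimmed 59-base single-end reads, aligned them to GRCm38 with CLC Genomics Workbench 12.0 at default RNA-Seq settings and deposited, per library, read counts for 25814 genes (total and unique reads in genes, exons and introns) and RPKM values. Use of strand is not stated. RPKM equalled exon reads over exon length and 1 constant per library. Groups and replicate numbers came from the sample titles, and no batch is given. Libraries of a group differed by more than sampling noise (chi-square per degree of freedom 17.1 and 17.9).

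Total exon reads of all 4 libraries were fitted with edgeR 4.0.16 (R 4.3.3; filterByExpr, TMM, quasi-likelihood, genotype as the sole term), two-sided, with Benjamini-Hochberg adjustment over 12111 genes. The procedure was tested on simulated data, in which the share of false calls beside planted changes was above the nominal rate, so calls near the threshold are less secure. Alternatives used DESeq2 1.42.0, limma-trend 3.58.1 on log2(RPKM + 1) or log2(RPKM + 0.1), other scalings, filters and counts, a replicate block, and left-out libraries. Exon overlaps and 59-base windows were read from GENCODE M21, and promoters from RefSeq.

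The 9 genes and all lists (osmolyte transport and metabolism, chaperones, kinases, signalling, cell type markers) were chosen with earlier results of these data known. Named were the 9, Mrps6, list genes past the threshold, up to 4 of highest mean RPKM per list, and the 3 closest profiles of Slc5a3 and Slc6a6. Other genes were named with their values already known.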

Additional observations from a re-analysis of the deposited data

How the results depend on the processing

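Of 12111 tested genes, 175 passed. The count was 263 with library totals as the scale, 420 with DESeq2 and, without a filter on low counts, 1109 of 16176 tested (6.86%). It lay between 28 (without Nfat5-/- replicate 2) and 244 (without WT replicate 2) when 1 library was left out, with 12340 to 12463 genes tested, and was 69 without Nfat5-/- replicate 1. Of the 9 genes, 3 passed without the filter (Slc38a2, Hspa4l and Slc6a6, adjusted p 0.000843, 0.00649 and 0.0399 in edgeR) and 1 with DESeq2 (Slc38a2). The cause was not tested. With unique exon reads, 7 of the 9 were tested and 4 were lower, as Slc5a3 was not tested and Akr1b3 turned to a log2 fold change of 0.085. Leaving out single libraries moved Akr1b3 between -0.15 and 0.065 (without Nfat5-/- replicate 2; 0.01 without WT replicate 2) and Hspa1a between -0.24 (without Nfat5-/- replicate 2) and 0.45 (-0.06 without WT replicate 2). No other direction among the 8 tested genes reversed in any alternative run. Leaving out single libraries moved Slc38a2 between -0.68 and -0.31, Slc6a6 between -0.50 and -0.28, Hspa4l between -0.72 and -0.24 and Slc5a3 between -0.55 and -0.11. A replicate block left 164 genes past the threshold, 138 of them among the 175, and 0 of the 9. Deviations of same-numbered libraries correlated at -0.0489, so no shift shared by same-numbered libraries was seen. With 2 libraries a group, this value cannot show whether the libraries were paired. A left-out library leaves 1 sample in its group, which is assumed to vary like the other group. With 2 libraries a group, differences as small as those of Sgk1 or Hspa1b lay within the interval of no change, and reads not placed at a single site limit Slc5a3, Akr1b3, Hspa1a and Hspa1b.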
